A study of Homo sapiens with 23 samples.

Results

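The 6 genes described here encode CXC chemokines that attract neutrophils, CXCL1, CXCL2, CXCL3, CXCL5, CXCL6 and CXCL8, and they lie together on chromosome 4. They were chosen by symbol, with earlier results of these data known. All 6 have a row among the 21463 gene rows of the authors' deposited table. The cells were PC-3, an established line of human prostate carcinoma cells taken from a bone metastasis. They carried a lentiviral cDNA of PARG, the hydrolase that degrades poly(ADP-ribose), joined to the fluorescent protein mClover3 by a cleavable link and driven by the doxycycline-inducible TetOne promoter. Each group was a single transduced clone, I4 or H6, kept for 72 h without doxycycline or with 500 ng/ml of it. Each clone was grown in 2 independent experiments, N at passage 5 and B at passage 7, which went to different sequencing centres with unstranded and strand-specific libraries respectively. The 23 libraries came from 3 wells in each of 8 groups, except 2 wells for untreated H6 in experiment B. All groups, untreated ones included, carry the construct, and doxycycline given to cells without it was not analysed here, so that effects of the drug and of PARG cannot be told apart.

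The 4 comparisons, doxycycline against none in each clone and experiment, share no library. For each, the authors' deposited table gives the mean of whichever group was higher, read as RPKM (reads scaled to exon length and library depth), a fold change and a q-value (an adjusted p). Where a pair of values is given for a clone, the former is from experiment N and the latter from experiment B. A gene is called changed here where the q-value is under 0.05. Values of single libraries were not analysed here, so group means carry no SD, and the level of the lower group was derived as the listed mean divided by the fold. As each group holds wells of the same clone, a q-value here covers the spread between wells at most. In bulk RNA, fewer cells making a transcript and less of it per cell cannot be told apart. Library depth, estimated from the smallest steps between values of scarcely read genes, was 33.7 to 43.2 M reads a library in experiment N and 19.2 to 26.5 M reads in experiment B. Folds carry a sign but no stated direction, so the induced gene was used to read it: PARG was positive in each comparison, at 1.35 and 1.40 for I4 and at 2.15 and 1.99 for H6 in the authors' deposited table, and positive was taken as higher with doxycycline.

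These chemokines are small secreted proteins that carry a Glu-Leu-Arg motif before their CXC cysteines and act on the receptors CXCR1 and CXCR2, found mainly on neutrophils. Epithelial and stromal cells make them when interleukin-1 or TNF activates the transcription factor NF-kB, and their mRNAs are short-lived, because AU-rich elements and RNases such as regnase-1 (ZC3H12A) speed their decay. In carcinoma cells they are studied for drawing in neutrophils and for promoting the growth of blood vessels.

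On GRCh38 (GENCODE release 29) the cluster runs from CXCL8 to CXCL2 over 358.8 kb of chromosome 4, from 73740506 to 74099293. CXCL8 (interleukin-8, 73740506 to 73743716), CXCL6 (73836497 to 73849064) and CXCL1 (73869393 to 73871242) are on the plus strand. CXCL5 (73995642 to 73998779), CXCL3 (74036589 to 74038807) and CXCL2 (74097035 to 74099293) are on the minus strand. The 150 bases before each RefSeq start site (GRCh38.p14) are shown because all 6 genes changed in the same direction and their promoters hold a common sequence; capitals mark the stretch GGAATTTCC, with a G before it where the gene has one, and in CXCL8 also a match to the AP-1 motif.
CXCL8, chr4:73740419-73740568, plus strand: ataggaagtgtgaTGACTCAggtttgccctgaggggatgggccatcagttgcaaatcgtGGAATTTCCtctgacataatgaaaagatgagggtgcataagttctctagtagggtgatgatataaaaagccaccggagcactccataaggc
CXCL6, chr4:73836528-73836677, plus strand: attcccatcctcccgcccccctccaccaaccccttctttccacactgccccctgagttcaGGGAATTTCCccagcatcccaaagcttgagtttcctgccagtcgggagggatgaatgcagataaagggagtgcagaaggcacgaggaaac
CXCL1, chr4:73869243-73869392, plus strand: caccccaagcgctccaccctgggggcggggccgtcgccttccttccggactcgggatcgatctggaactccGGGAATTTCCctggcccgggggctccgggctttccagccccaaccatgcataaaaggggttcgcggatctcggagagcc
CXCL5, chr4:73998678-73998827, minus strand: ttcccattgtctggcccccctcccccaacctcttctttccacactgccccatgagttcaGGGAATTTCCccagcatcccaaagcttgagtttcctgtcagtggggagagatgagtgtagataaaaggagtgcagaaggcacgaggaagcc
CXCL3, chr4:74038690-74038839, minus strand: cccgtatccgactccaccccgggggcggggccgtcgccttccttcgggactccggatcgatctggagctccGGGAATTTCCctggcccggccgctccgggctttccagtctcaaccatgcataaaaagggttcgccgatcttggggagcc
CXCL2, chr4:74099196-74099345, minus strand: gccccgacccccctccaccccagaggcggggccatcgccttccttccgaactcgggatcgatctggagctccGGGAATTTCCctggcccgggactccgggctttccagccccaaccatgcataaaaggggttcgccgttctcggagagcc

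In the 250 bases before the RefSeq start site, GGAATTTCC stood 77 to 91 bases before that start in all 6 genes. It was always on the coding strand. The RefSeq starts differ from the ends of the GENCODE genes given above, except in CXCL1. By those GENCODE spans the stretch lies inside the gene in CXCL2, CXCL3, CXCL5 and CXCL6, and before it in CXCL1 and CXCL8. Searched on both strands, GGAATTTCC occurred in 145 of the 35116 promoter windows of that length in RefSeq (0.413%) and in 0.502% of genes. These shares include the 6 members, whose promoters are partly alike in sequence, as described below, so they are not 6 independent cases. GGAATTTCC was chosen after these promoters had been read, so its presence in all 6 is a description. In CXCL1, CXCL2, CXCL3, CXCL5 and CXCL6 a G came before it, a longer form that 0.142% of the windows hold, and in CXCL8 a T came before it. A wider NF-kB motif, GGG and CC with any 5 bases between them, was searched on both strands with overlapping matches kept. It matched all 6, but also 54.4% of all windows, and the shared stretch with its preceding G is itself a match. In CXCL8 the only match to the wider motif was another stretch, 117 to 108 bases before the start. The AP-1 motif TGANTCA, held by 6.57% of the windows, was found in CXCL8 only, 137 to 131 bases before the start. No match says only that these letters are not in this window.

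**Figure D1:**
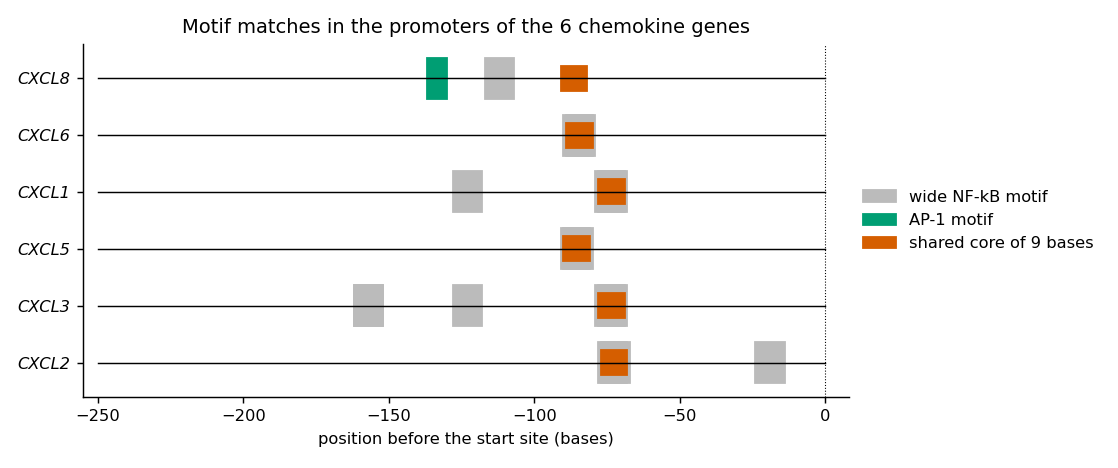
Positions, in bases before the RefSeq start site (dotted line at 0), of motif matches in the 250 bases before each of the 6 genes. Grey boxes are matches to the wide NF-kB motif, orange boxes the shared core of 9 bases, which starts 77 to 91 bases before the start in every gene, and the green box the AP-1 match of CXCL8.

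The promoters fell into groups by sequence. Globally aligned over 250 bases, those of CXCL5 and CXCL6 were 85.3% identical, and those of CXCL1, CXCL2 and CXCL3 were 70.1% to 81.4% identical to each other. The CXCL8 promoter was at most 48.1% identical to any other member's, and its GC content was 37.6%, against 58.8% to 65.6% in the rest. Transcripts of like genes can share reads. Of all 50-base stretches in the GENCODE transcripts of CXCL2, 12.5% also occur in CXCL1 or CXCL3, and 6.01% of those of CXCL3 and 4.81% of those of CXCL1 occur in the other members of this trio. CXCL5, CXCL6 and CXCL8 share none with another member; 2.16% of the stretches of CXCL6 occur in the pseudogene PPBPP1 and 1.12% of those of CXCL5 in GLYR1. The counting of shared reads is not described in the sources used here. The values of CXCL2 and CXCL3, which are far less abundant than CXCL1, are therefore uncertain by an amount that was not tested and can exceed these shares.

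All 6 chemokine mRNAs fell with doxycycline in both clones and both experiments. Every member was called lower in all 4 comparisons of the authors' deposited table, where 1.97% of the 15063 genes tested in all 4 were called lower in each. Between 8.53% (I4, experiment N) and 3.93% (H6, experiment B) of the genes tested were called lower in a single comparison, with 7.07% in H6 in experiment N and 6.59% in I4 in experiment B. Higher calls made up 7.18% and 7.46% for I4 and 6.57% and 3.63% for H6. Among genes of at least 1 RPKM, 2.65% were called lower and 2.27% higher in all 4. The folds ranged from 2.52-fold to 13.3-fold lower, and the q-value was listed as 0 in 23 of the 24 cases and as 9.33e-13 for CXCL2 in H6 in experiment N. The median log2 fold of the 6 was -3.10 and -3.40 for clone I4 and -1.97 and -2.10 for clone H6. Over the 10752 genes of at least 1 RPKM the median lay between -0.01 and 0.01 in each comparison, and 1% of these genes were below a log2 fold of -0.90 and -0.80 in I4 and of -0.70 in both experiments of H6.

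**Figure D2:**
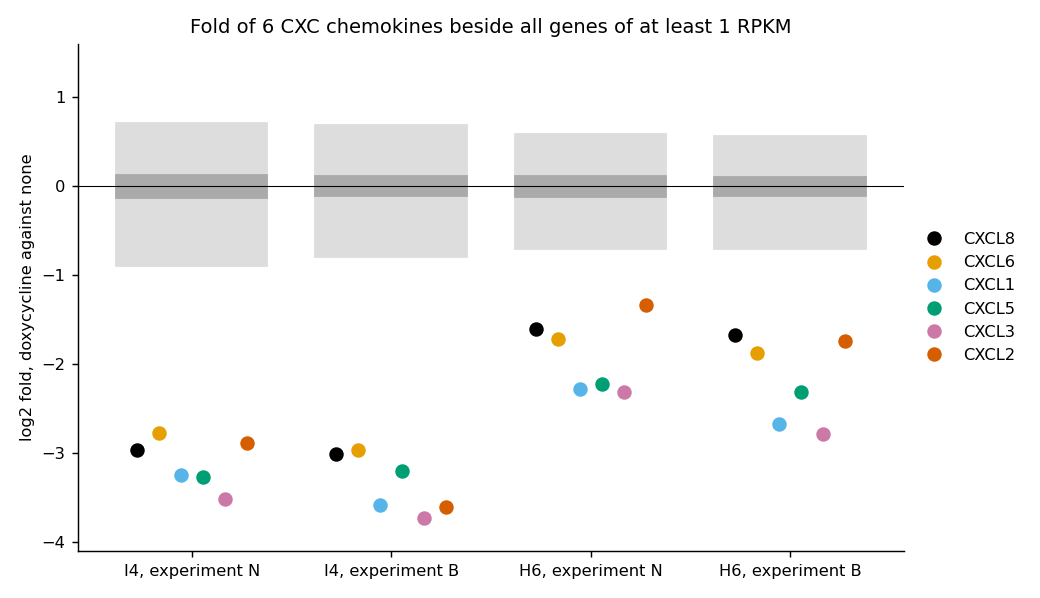
Log2 fold of doxycycline against none (vertical axis) for the 6 chemokines in each clone and experiment, coloured points, beside all 10752 genes of at least 1 RPKM. Light grey boxes span the 1st to 99th percentile of those genes and dark grey boxes the middle 50%. Every chemokine lies below the light box, and within each experiment the I4 points lie lower than the H6 points.

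CXCL1, the growth-regulated oncogene alpha, was the most abundant member. For untreated I4 the authors' deposited table lists 292 and 281 RPKM, and for untreated H6 285 and 279.9 RPKM. The derived level under doxycycline was 30.9 and 23.4 RPKM for I4 and 58.9 and 44.0 RPKM for H6. All 4 untreated groups were therefore close in CXCL1, and all 4 treated groups were far below them. By the authors' deposited table it fell 9.47-fold and 12.01-fold for I4, and 4.84-fold and 6.35-fold for H6. CXCL1 alone made up 51.7% to 60.7% of the summed RPKM of the 6 without doxycycline and 45.9% to 55.6% with it.

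CXCL3 and CXCL2 (growth-regulated oncogenes gamma and beta) are the closest relatives of CXCL1 in the cluster. CXCL3 is listed in the authors' deposited table at 33.5 and 24.8 RPKM for untreated I4 and at 25.3 and 20.4 RPKM for untreated H6. Its derived level under doxycycline was 2.93 and 1.87 RPKM for I4 and 5.09 and 2.95 RPKM for H6. Its fall had the largest size of the 6 in each comparison: 11.5-fold and 13.3-fold for I4, and 4.98-fold and 6.91-fold for H6, as the authors' deposited table gives it.

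CXCL2 was the least abundant member in every group. The authors' deposited table has it at 13.6 and 13.0 RPKM for untreated I4 and at 8.90 and 8.78 RPKM for untreated H6. Under doxycycline the derived level was 1.84 and 1.06 RPKM for I4 and 3.53 and 2.62 RPKM for H6. Its fall varied most between comparisons, from 2.52-fold and 3.35-fold for H6 to 7.38-fold and 12.2-fold for I4 by the authors' deposited table. The lowest of its levels, in treated I4 cells of experiment B, corresponds to about 30.6 reads a library at the lowest depth of that experiment, against about 374 without doxycycline, so this fold is the least precise of the 6.

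CXCL5 and CXCL6 (ENA-78 and GCP-2), the pair with the most similar promoters, were more abundant in H6 than in I4. Untreated CXCL5 levels in the authors' deposited table are 53.7 and 41.8 RPKM for I4 but 118 and 84.3 RPKM for H6. Under doxycycline the derived CXCL5 level was 5.58 and 4.53 RPKM for I4 and 25.4 and 16.9 RPKM for H6. Treated H6 cells thus kept a CXCL5 level below every untreated group but several times that of treated I4 cells. CXCL5 fell 9.63-fold and 9.23-fold for I4, and 4.65-fold and 4.97-fold for H6, by the authors' deposited table.

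CXCL6, which unlike most of the family acts strongly on CXCR1 as well as on CXCR2, had untreated levels of 55.8 and 43.2 RPKM for I4 and 77.1 and 52.6 RPKM for H6 in the authors' deposited table. Its derived level under doxycycline was 8.16 and 5.55 RPKM for I4 and 23.4 and 14.3 RPKM for H6. By the authors' deposited table CXCL6 fell 6.84-fold and 7.79-fold for I4, the smallest falls of the 6 there, and 3.30-fold and 3.68-fold for H6.

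CXCL8, interleukin-8, is the best known of the family and lies at the left end of the cluster. The authors' deposited table lists it at 48.1 and 58.9 RPKM for untreated I4 and at 36.6 and 41.5 RPKM for untreated H6. Its derived level was 6.17 and 7.31 RPKM for treated I4 and 12.1 and 13.0 RPKM for treated H6. CXCL8 was the only member listed higher in experiment B than in experiment N in both clones without doxycycline, by 1.22 and 1.13 times. The fall was 7.80-fold and 8.06-fold for I4, and 3.03-fold and 3.19-fold for H6, in the authors' deposited table.

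**Figure D3:**
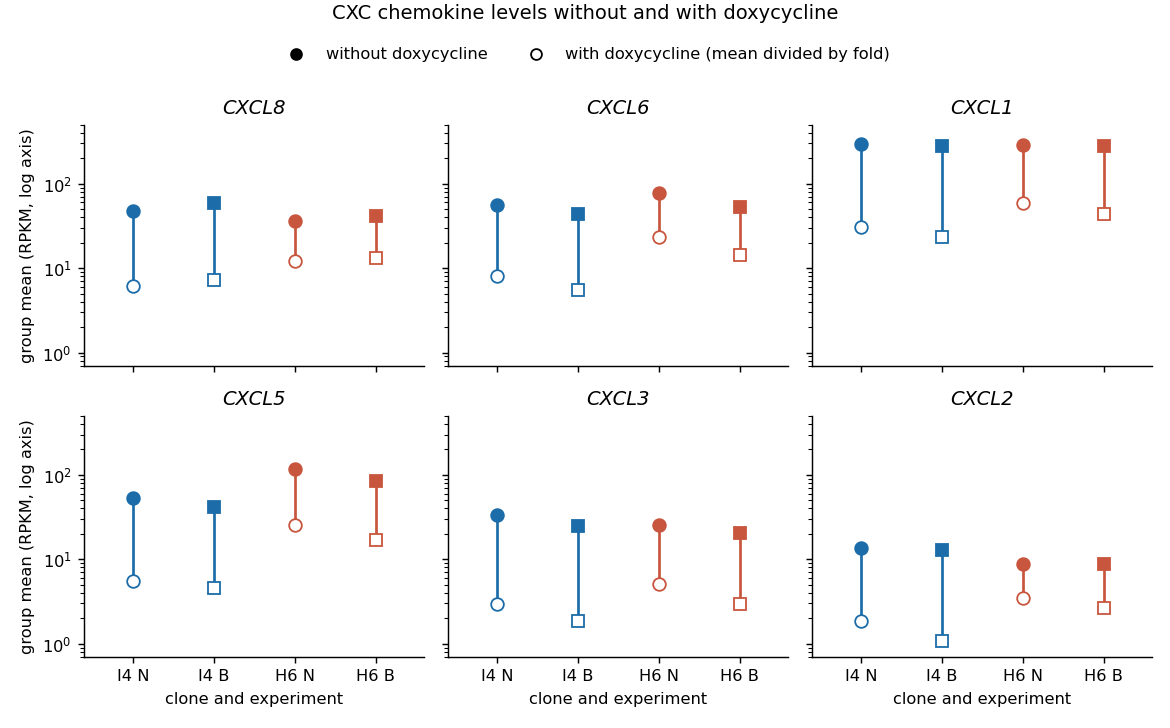
Group mean level (RPKM, log axis) of each chemokine without doxycycline (filled) and with it (open, the listed mean divided by the fold), by clone and experiment (circles N, squares B). Each open symbol lies below its filled one, and the open symbols of H6 lie above those of I4 for every gene.

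Ordered by the mean of the 4 log2 folds, CXCL3 fell most (8.50-fold), followed by CXCL1 (7.69-fold), CXCL5 (6.73-fold), CXCL2 (5.25-fold), CXCL6 (5.04-fold) and CXCL8 (4.97-fold). The steps from CXCL3 to CXCL1, from CXCL2 to CXCL6 and from CXCL6 to CXCL8 were smaller than the change of either gene's fall between experiments. The place of CXCL2 in this order changed with the comparison: its fall was the smallest of the 6 in H6 in experiment N and exceeded only by that of CXCL3 in I4 in experiment B. Across experiments, the fall was larger in B than in N in 11 of 12 pairs of a gene and a clone, the exception being CXCL5 in I4, and the ratio of B to N ran from 0.96 to 1.65. The experiments differ in passage, library kit and sequencing centre, which cannot be told apart, and this difference was not tested. Summed over the 6 genes, the level went from 497 to a derived 55.5 RPKM in I4 in experiment N and from 462 to 43.7 RPKM in experiment B. In H6 the sum went from 552 to 128 RPKM in experiment N and from 487 to 93.9 RPKM in experiment B. All 6 were among the 11 largest falls of the 10752 genes in I4 in experiment N, the 9 largest in I4 in experiment B, the 30 largest in H6 in experiment N and the 12 largest in H6 in experiment B.

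The falls were larger in clone I4 than in clone H6 for every member in both experiments (12 of 12 pairs). The size of the fall in I4 was 1.95 to 2.93 times that in H6 in experiment N and 1.86 to 3.64 times in experiment B, the largest ratio being that of CXCL2 each time. The median difference of log2 folds, I4 minus H6, was -1.13 in experiment N and -1.01 in experiment B. Without values per library this difference could not be tested. PARG had the opposite order, with the larger fold in H6. Other genes called lower in both clones also had larger falls in I4 more often than in H6: 458 of 698 (65.6%) in experiment N and 214 of 362 (59.1%) in experiment B, with median differences of -0.05 and -0.03. Among the 27 and 26 of these that were at least 2-fold lower in both clones, 20 and 23 fell more in I4, with median differences of -0.40 and -0.55.

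**Figure D4:**
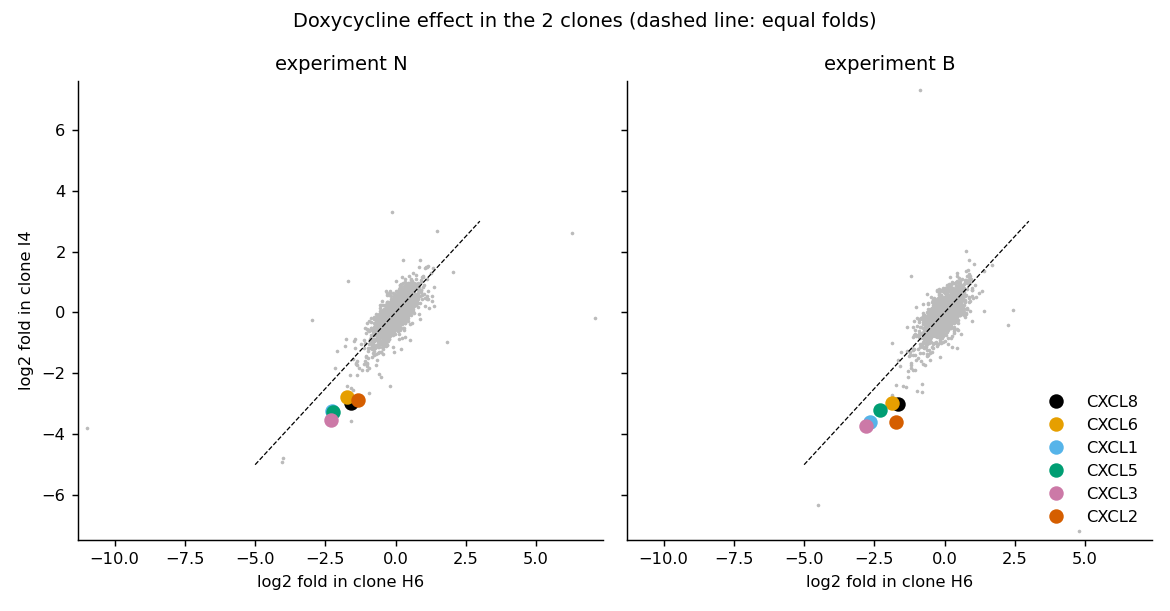
Log2 fold in clone I4 (vertical axis) against clone H6 (horizontal axis) for each experiment; grey points are genes of at least 1 RPKM and coloured points the 6 chemokines. All 6 lie below the dashed line of equal folds in both panels, which is a larger fall in I4.

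The clones also differed before doxycycline, in directions that varied from gene to gene. The ratio of H6 to I4 without doxycycline was 2.20 and 2.02 for CXCL5, 1.38 and 1.22 for CXCL6 and 0.98 and 1.00 for CXCL1, respectively. It was 0.76 and 0.82 for CXCL3, 0.76 and 0.70 for CXCL8 and 0.66 and 0.68 for CXCL2. Among the 10752 genes, 1.15% and 1.23% were at least 2-fold higher in H6, and 93.4% and 92.3% lay within 1.5-fold. With doxycycline every member was higher in H6, by 1.74 to 4.56 times in experiment N and 1.57 to 3.74 times in experiment B, CXCL5 having the highest ratio in both. These ratios were not tested, since each clone was compared only with itself in the table.

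Genes beside the cluster did not share its falls as a whole. Within 1000 kb on either side, 15 other genes have a row, of which 6 reached 1 RPKM. Of these 6, 1 gene, EPGN, a ligand of the EGF receptor, was called lower in all 4 comparisons. Its falls were between 1.41-fold and 2.71-fold by the authors' deposited table. Among all genes of at least 1 RPKM, 2.65% were called lower in all 4, and 6 genes are too few to set against that share. COX18 was 1.19-fold lower in H6 in experiment N (q = 0.00936) and was not called in the other comparisons. MTHFD2L, the nearest gene past CXCL2, had folds of at most 1.18 in either direction and was not called. AREG, which encodes the EGF receptor ligand amphiregulin, was higher in 3 comparisons (1.37-fold in I4 and 1.93-fold in H6 in experiment N, 1.56-fold in H6 in experiment B) and by the authors' deposited table had a q-value of 0.0645 in I4 in experiment B. The 3 genes that lie between members, PF4V1, PF4 and PPBP, encode platelet chemokines and were listed at 0 to 1.18 RPKM with no call.

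**Figure D5:**
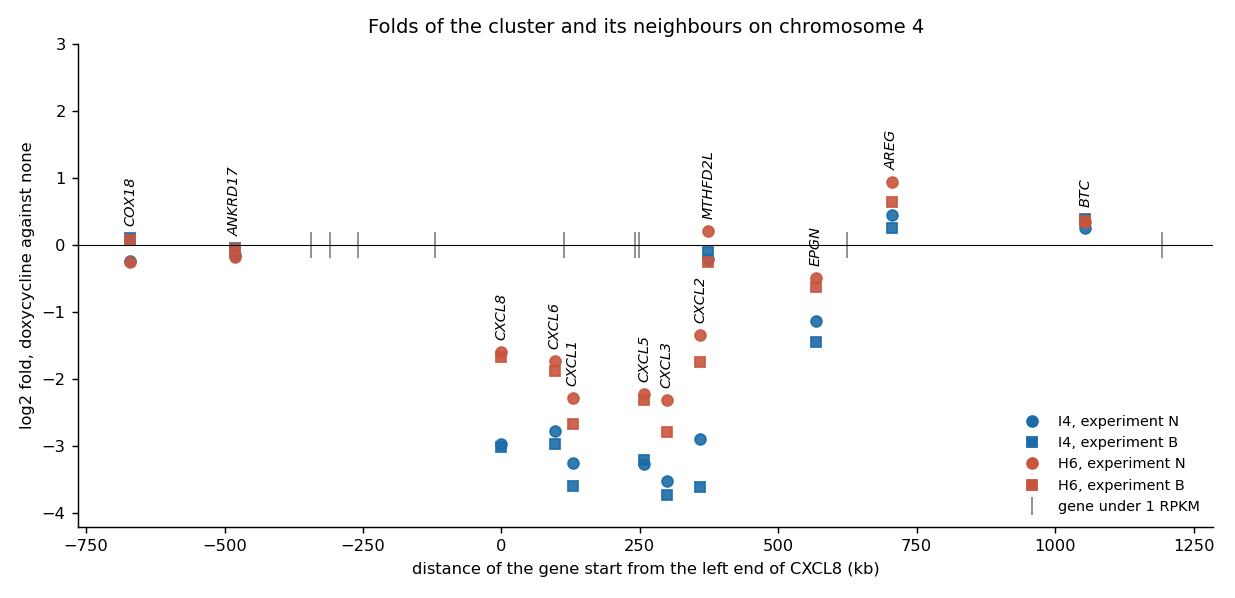
Log2 fold (vertical axis) by the distance of each gene's start from the left end of CXCL8 in kb (horizontal axis), for the 6 chemokines and their neighbours on chromosome 4; colour gives the clone, symbol the experiment, and grey ticks at 0 are genes under 1 RPKM. The 6 chemokines lie at log2 folds of -1.33 and below in all 4 comparisons, and of the 6 neighbours shown EPGN lies below 0 throughout with calls and AREG above it.

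The rest of the CXC family was little expressed or listed without a fall. Of 7 other CXC ligands of chromosome 4 (PPBP, PF4, PF4V1, CXCL9, CXCL10, CXCL11 and CXCL13), none reached 1 RPKM on average over the 4 comparisons and none was called. PF4 alone passed 1 RPKM in a comparison, at 1.18 RPKM in H6 in experiment N, and CXCL9 was listed at 0 throughout. Among the ligands of other chromosomes, CXCL14 and CXCL17 were listed at 0 and CXCL12 at no more than 0.0348 RPKM. CXCL16, a membrane-bound chemokine, was 1.47-fold and 1.54-fold higher in H6 (q = 0.0154 and 0.0109), at 2.25 and 2.06 RPKM, and its folds in I4 were 1.07 and 1.00 with no call, in the authors' deposited table.

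The list counts that follow, where they are over all 4 comparisons, stand beside the 1.97% of genes called lower and the 1.73% called higher in all 4. Among genes of at least 1 RPKM these shares were 2.65% and 2.27%. The lists were chosen with earlier results of these data known, so a count above these shares is a description only. The receptors for the 6 ligands were listed near 0, CXCR1 at no more than 0.0109 RPKM and CXCR2 at no more than 0.00557 RPKM. Of 10 receptors (CXCR1 to CXCR6 and the atypical ACKR1 to ACKR4), 1 was called lower in all 4 comparisons and none higher. It was ACKR3, a scavenger of CXCL12, which stood at 3.30 to 6.15 RPKM and was 1.44-fold to 1.77-fold lower by the authors' deposited table.

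Of 14 genes for NF-kB subunits, IkB proteins and the IkB kinase complex, 3 were called lower in all 4 comparisons and none higher. NFKBIZ, the atypical IkB protein IkB-zeta, which is a coactivator of such genes, was 2.26-fold to 4.39-fold lower at 10.1 to 11.0 RPKM in the authors' deposited table. NFKBIA, the feedback inhibitor IkB-alpha, was 1.42-fold to 2.60-fold lower, and the subunit gene REL 1.28-fold to 1.66-fold lower by the authors' deposited table. In I4, 9 of the 14 were called lower in each experiment, where 8.53% and 6.59% of all genes tested were. In H6, 4 and 3 of the 14 were called lower, where 7.07% and 3.93% of all genes were, and the difference between the clones was not tested. RELB, NFKB1 and NFKB2 were lower by at least 1.51-fold in both experiments of I4, while in H6 their falls were at most 1.23-fold in the authors' deposited table. Of these 3, NFKB1 was called lower in H6 in experiment N (q = 0.000743), and there was no other call in H6. The median log2 fold of the 13 genes of at least 1 RPKM was -0.47 and -0.67 for I4 and -0.11 and -0.19 for H6. RELA, the subunit that most often activates these chemokines, stood at 22.3 to 28.3 RPKM and was not called in any comparison.

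Of 16 genes of interleukin-1, TNF and interleukin-17 signalling, 2 were called lower and 1 higher in all 4 comparisons. IL1B, the precursor of interleukin-1 beta, fell 5.34-fold and 6.61-fold for I4, from 36.3 and 55.3 RPKM, and 3.30-fold and 3.64-fold for H6, from 217 and 342 RPKM, by the authors' deposited table. IRAK2, a kinase below the interleukin-1 receptor, was 1.56-fold to 2.24-fold lower, and the TNF receptor gene TNFRSF1A 1.20-fold to 1.24-fold higher by the authors' deposited table. The receptor gene IL1R1 was listed at 0.17 to 0.22 RPKM and TNF at no more than 0.0228 RPKM, neither with a call.

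Of 12 genes for RNases and proteins that bind chemokine mRNA, a list that also holds the NF-kB inhibitor gene TNFAIP3, 3 were called lower in all 4 comparisons and none higher. ZC3H12A, the RNase regnase-1, was 3.01-fold to 7.23-fold lower at 22.7 to 26.8 RPKM in the authors' deposited table. TNFAIP3, a deubiquitinase that restrains NF-kB, was lower by factors of 1.62 to 3.31 and ZC3H12C, a relative of ZC3H12A, 1.20-fold to 1.36-fold lower by the authors' deposited table. ZFP36, whose protein tristetraprolin destabilises AU-rich mRNAs, was 1.49-fold higher in I4 in experiment N (q = 0.0308) and was not called in the other 3 comparisons of the authors' deposited table.

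The members' own transcripts are rich in the AU-rich element core, written ATTTA as DNA and searched on the sense strand only. The longest protein-coding transcript of each member in GENCODE release 29 holds 5 to 11 copies, or 3.49 per kb in CXCL6 to 8.21 per kb in CXCL2, against a median of 0.94 per kb over 19669 genes. The longer element TTATTTATT was found in 4 of the 6 (5 copies in CXCL2, 3 in CXCL1 and 1 each in CXCL3 and CXCL8) and in 8.73% of all genes. CXCL5 and CXCL6 hold none. These counts cover whole transcripts, coding part included.

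Of 10 other granulocyte growth and recruitment factors, 4 were called lower in all 4 comparisons (CSF3, CSF2, LIF and IL6) and none higher. CSF3, which encodes the neutrophil growth factor G-CSF, had untreated levels of 6.12 to 9.92 RPKM. It fell by factors of 16.5 to 80.2 in the authors' deposited table. The largest factor, in I4 in experiment B, starts from 6.12 RPKM and leaves a derived level near 0, so it is imprecise. CSF2, which encodes GM-CSF, fell by factors of 1.91 to 5.17 and IL6 by factors of 2.61 to 5.31 in the authors' deposited table. LIF had the larger falls in H6, by 2.70-fold and 2.89-fold there against 2.26-fold and 2.47-fold in I4 in the authors' deposited table, a difference that was not tested. CSF1, the macrophage growth factor, had falls of 1.59-fold and 1.66-fold for I4 and no call for H6 in the authors' deposited table. CCL2, a monocyte attractant, was listed at no more than 0.0329 RPKM.

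Of 18 genes for heparan sulfate carriers, enzymes that make or cut heparan sulfate, and chemokine-acting proteases, none was called lower and 4 were called higher in all 4 comparisons. MMP13, a collagenase, was 2.51-fold to 4.09-fold higher and DPP4, a dipeptidyl peptidase that trims several chemokines, 1.66-fold to 2.15-fold higher by the authors' deposited table. The glypican genes GPC1 and GPC4 were higher by factors of 1.21 to 1.38 and of 1.19 to 1.32 by the authors' deposited table.

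The genes whose 4 log2 folds lay closest to the medians of the 6 members were ZC3H12A, IL1B, DIO3, IL6, CSF2, NFKBIZ, LCN2 and PID1, among 10318 genes of at least 1 RPKM in each comparison. Likeness was the Euclidean distance over the 4 comparisons, which was 0.94 for ZC3H12A, 1.02 for IL1B, 1.40 for DIO3 and 1.90 to 2.32 for the other 5, against 0.41 to 0.94 for the members themselves and a median of 5.43 over the genes compared. DIO3, the deiodinase that inactivates thyroid hormone, stood at 1.80 to 4.01 RPKM and was 2.58-fold to 5.86-fold lower by the authors' deposited table. The distance takes in the size of the folds, so genes of large falls come out nearest. As the medians are those of the same 6 genes, the short distances of the members are partly built in. LCN2 fell 4.36-fold and 6.15-fold for I4 in the authors' deposited table. For H6 its falls were 1.43-fold (q = 0.0934, no call) and 1.75-fold.

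Neutrophil and blood cell markers were at or near 0. Of 10, MPO, ELANE and S100A12 were listed at 0 in all 4 comparisons, and only CD68, a lysosomal protein of many cell types, reached 1 RPKM, at 16.1 to 27.4 RPKM. The summed level of all 10 was 16.4 to 27.6 RPKM, nearly all of it CD68. ITGAM was called lower in I4 in experiment N at a level of 0.0578 RPKM. Of 10 markers of the PC-3 line, none was called lower and 2 were called higher in all 4 comparisons, KRT8 by factors of 1.28 to 1.33 and KRT18 by factors of 1.20 to 1.31 in the authors' deposited table. VIM, abundant in PC-3, stood at 287 to 416 RPKM, and CDH1 at no more than 0.394 RPKM, while the keratin genes KRT8 and KRT18 stood at 25.1 to 55.9 and 101 to 127 RPKM. KLK3, which encodes prostate-specific antigen, was listed at no more than 0.00695 RPKM.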

How the data were processed

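RNA of 23 PC-3 libraries was poly(A)-selected, per the labels' protocols. The build was hg38, per the submitters' processing notes. Not given in the sources used here: aligner, counter, annotation and test. A single table of 4 comparisons is what the authors deposited. The deposited level is the mean of whichever group was higher, computed by the authors and read here as RPKM, as the table names no unit. After multiplying by exon length the smallest values fall on fixed steps (columns sum to 283580 to 301832). The authors' deposited fold is a signed ratio, and their q-value an adjusted p. As no counts per library were given, the planned count models were not run, and calls used a q-value under 0.05. The fold may come from a model rather than from the means, so derived levels are approximate.

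The 6 members and the 11 other gene lists were chosen with earlier results of these data known. Named genes are the members, CXC ligands and receptors, and the 8 genes of most similar folds. List genes called in all 4 comparisons, or by at least 1.5-fold in 2 or more, were also named. RELA, IL1R1, TNF, ZFP36, CCL2, COX18, MTHFD2L, FCHSD2 and the cell markers were added after their values were seen. Names were matched to GENCODE release 29 (99.6% of rows), and promoters came from RefSeq, GRCh38.p14. Python 3.11.15, pandas 2.3.3 and Biopython 1.88 were used, and functions were tested on simulated data.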

Additional observations from a re-analysis of the deposited data

Results flagged for a closer look

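Among the genes named, IL32, which encodes a cytokine and is one of the recruitment factors listed, was set apart because the clones were listed in opposite directions. In the authors' deposited table its fall was 2.29-fold and 2.18-fold for I4 (experiments N and B), while H6 had folds of 1.14 (q = 0.301) and 1.21 (q = 0.0382) upward. The mean difference of its log2 folds, I4 minus H6, was -1.40, and the difference between the clones was not tested. None of the 6 chemokines was listed in opposite directions.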

How the results depend on the processing

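All 6 chemokines stayed called lower in all 4 comparisons at a q-value under 0.01 and with a minimum of 2-fold. The largest q-value, 9.33e-13, and the smallest fall, 2.52-fold, already fix this. Calls in either experiment alone or either clone alone follow from those in all 4 comparisons. These settings could therefore not change the count. With a pseudocount of 1 RPKM on the derived levels, the median log2 fold in I4 in experiment B was -2.90 in place of -3.40, and the median clone difference -0.99 (N, in place of -1.13) and -0.92 (B, in place of -1.01); the added value shrinks the folds of low levels by construction. Centring on all genes and taking the mean of the members moved no median by more than the spread between experiments. A minimum of 2-fold left 0 receptors, 0 neighbours, 1 gene of the NF-kB list, 1 gene of interleukin-1 signalling and 1 gene of the RNase list called lower in all 4, and 0 genes of interleukin-1 signalling, 1 gene of the heparan sulfate and protease list and 0 PC-3 markers called higher. The same minimum left 3 granulocyte factors called lower in all 4, in place of 4. At a q-value under 0.01 the neighbours called lower were 0, and the NF-kB and RNase lists each had 2 genes called lower in place of 3. No paired analysis was possible because the table holds no values of single libraries; leaving out replicates was not possible for the same reason, and the count models and their block by replicate were not run. With a stricter NF-kB motif (GGGAA or GGGG at its start) 5 members matched, and with GGAATTTCC, chosen after seeing the data, 6.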

Other observations

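GGAATTTCC, the stretch common to the members' promoters, was also found before the RefSeq start of 37 other genes of at least 1 RPKM. Of these, 4 were called lower in all 4 comparisons and none higher (10.8%), against 2.41% lower among 8605 genes whose windows lack it. The 4 are NFKBIZ, NFKBIA, REL and FCHSD2, the last an endocytic adaptor gene. The median log2 fold of the 37 was -0.09 and -0.07 in I4 and -0.05 in both experiments of H6, so most genes with the stretch were listed near no change. The stretch was chosen after the members' promoters had been read, and the counts are given with no test.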
